A study of Mus musculus with 416 samples.

Results

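The mitochondrially encoded transcripts are the RNAs made from the circular genome inside the mitochondrion, and were taken here as every row of the count table whose mapped symbol begins with mt-. The rule found 37 of 46517 gene IDs: 13 messenger RNAs, 2 ribosomal RNAs and 22 transfer RNAs. They were followed over 416 RNA-seq libraries of striatum from drug-naïve J:DO mice, the Diversity Outbred stock of genetically unique animals descended from inbred founder strains. The groups by labelled sex and generation of outbreeding were 76 female and 74 male mice of G21, 60 female and 59 male mice of G22, and 72 female and 75 male mice of G23. Each library carries the number of 1 animal. No animal was treated, and the sources used here give neither ages nor mitochondrial haplotypes, so neither was analysed.

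Mitochondrial DNA is transcribed from both strands into long precursors, which are cut at the transfer RNAs into single RNAs. The messenger RNAs encode core subunits of the respiratory chain and ATP synthase, the ribosomal RNAs build the mitochondrial ribosome that reads them, and every other protein of these complexes comes from nuclear genes. Striatal spiny neurons, like other neurons, draw most of their ATP from this system. Pieces of mitochondrial DNA also lie in the nuclear genome as pseudogenes, and short reads from such a copy and from its source look alike. Of the members, 12 messenger RNAs, both ribosomal RNAs and 14 transfer RNAs lie on the strand annotated as plus, and mt-Nd6 with 8 transfer RNAs lies on the other.

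The following sequences show where members and their nuclear copies, or neighbouring members, can and cannot be told apart. They come from the GENCODE M21 transcripts (GRCm38), run 5′ to 3′ on the plus strand, and positions are counted from 1 at the 5′ end of the member's transcript. mt-Nd4l (chrM:9877-10173) is shown whole, since its copy Gm10222 on chromosome 1 is identical to it over the copy's whole length; capitals mark the bases beyond that copy. The end of mt-Co2 (chrM:7637-7696) is shown in the same way against Gm28661, also identical over the copy's whole length. In mt-Nd3 (chrM:9459-9498) and mt-Co1 (chrM:6373-6412) the capital marks the only base that differs from the copy within the aligned stretch, T3C in Gm28438 and A1066T in Gm29216. In the end of mt-Atp8 (chrM:7907-7969) capitals mark the 43 bases that also begin mt-Atp6. mt-Ts2 (chrM:11613-11671) and mt-Tl1 (chrM:2676-2750) are the shortest and the longest transfer RNA.
mt-Nd4l: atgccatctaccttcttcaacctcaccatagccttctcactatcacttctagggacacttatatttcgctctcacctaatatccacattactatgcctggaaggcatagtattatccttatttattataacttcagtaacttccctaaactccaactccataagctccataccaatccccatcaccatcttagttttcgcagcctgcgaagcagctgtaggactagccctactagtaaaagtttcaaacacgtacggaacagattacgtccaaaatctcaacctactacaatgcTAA
mt-Co2: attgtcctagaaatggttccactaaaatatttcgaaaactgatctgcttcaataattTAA
mt-Nd3: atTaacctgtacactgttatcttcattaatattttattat
mt-Co1: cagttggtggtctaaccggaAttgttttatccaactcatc
mt-Atp8: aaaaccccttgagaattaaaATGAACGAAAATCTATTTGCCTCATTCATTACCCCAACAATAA
mt-Ts2: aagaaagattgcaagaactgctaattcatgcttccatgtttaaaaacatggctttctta
mt-Tl1: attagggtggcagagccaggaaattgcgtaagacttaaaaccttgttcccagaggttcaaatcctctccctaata

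Total estimated counts ran from 20331813 to 77458299 a library, with a median of 43516366. Levels are given as CPM, the count over the library total scaled with TMM factors. The tissue label was checked against 10 spiny neuron markers, whose mean log2 CPM had a median of 9.01 in female and 9.01 in male libraries and a lowest value of 2.71. Drd1, the dopamine receptor of direct-pathway neurons, had a median of 310 CPM and 1.52 CPM in its lowest library. In 29 libraries the Xist level went against the labelled sex, and 29 had a low total or a low correlation with the rest. Each comparison between groups was run with and without each of these sets.

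None of the 22 transfer RNAs had a count in any of the 416 libraries. A floor of 3 counts corresponds to 0.0385 to 0.145 CPM, depending on the library, and covers counting error only. Their transcripts are 59 to 75 bases long, shorter than the 100 bp reads the labels give. Length moved with detection across the whole table: 5 of 2355 annotated genes under 100 bases had any count (0.212%), the shortest of them 94 bases, whereas 2914 of 4031 genes from 100 to under 200 bases did (72.3%). A level of 0 in these libraries sets no value for the transfer RNA of the tissue. The other 15 members had counts in all 416 libraries, and all 15 passed the filter on low counts.

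Counts were divided between members and nuclear copies, and the division differed greatly between libraries. A search of the 13 messenger and 2 ribosomal RNAs against annotated nuclear transcripts found 7 members with a pseudogene of at least 99% identity over at least 200 bases, all on chromosome 1. These are Gm29216 for mt-Co1, Gm28661 for mt-Co2, Gm10925 for mt-Atp6, Gm28437 for mt-Co3, Gm28438 for mt-Nd3, Gm10222 for mt-Nd4l and Gm28439 for mt-Nd4. The 15 members took a median of 4.59% of scaled counts (2.89% to 7.19%), the 7 copies 1.34% (0.679% to 2.48%), and both together 5.94% (3.63% to 9.67%).

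mt-Co2, a catalytic core subunit of cytochrome c oxidase, had a lowest level of 1.71 CPM, a median of 1262 CPM and a highest of 2734 CPM, a range of 1596-fold. Its copy Gm28661 had 2353, 4937 and 7865 CPM and exceeded mt-Co2 in all 416 libraries. Added up before scaling, the pair had 3406, 6062 and 9941 CPM, a range of 2.92-fold. The SD of log2 CPM between libraries was 2.91 for mt-Co2 alone and 0.22 for the sum. Thus the deposited mt-Co2 row varied more than 99.7% of all genes tested, and the sum more than 35.8% of them.

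mt-Nd4l, the smallest complex I subunit encoded here, split into separate levels with none between. In 26.9% of libraries it lay from 4.91 to 29.9 CPM and in the others from 180.6 to 529.6 CPM. The sum with Gm10222 ran from 722 to 1911 CPM in the first set and from 602 to 1596 CPM in the second, which overlap almost entirely. The SD of log2 CPM was 2.35 for mt-Nd4l alone and 0.19 for the sum. The low level occurred in all groups: 16 of 76 female and 21 of 74 male G21 libraries, 14 of 60 female and 15 of 59 male G22 libraries, and 23 of 72 female and 23 of 75 male G23 libraries.

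The low states of different members overlapped to different degrees. mt-Co2 was under 50 CPM in 63 libraries, of which 18 were also among the 26.9% of all libraries with low mt-Nd4l, close to that overall share. All 63 were among the 42.3% of libraries in which Gm29216, the copy of mt-Co1, was under 100 CPM. mt-Co3, another cytochrome c oxidase core subunit, held under 40% of its sum with Gm28437 in 36.5% of libraries, of which 4 libraries had low mt-Co2 and 21 low mt-Nd4l. mt-Atp6, the proton-channel subunit of ATP synthase, held between 26.9% and 57.04% of its sum with Gm10925. mt-Co1, mt-Nd3 and mt-Nd4 kept most of their counts, with lowest shares of 88.97% for mt-Co1, 74.7% for mt-Nd3 and 94.2% for mt-Nd4.

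**Figure D1:**
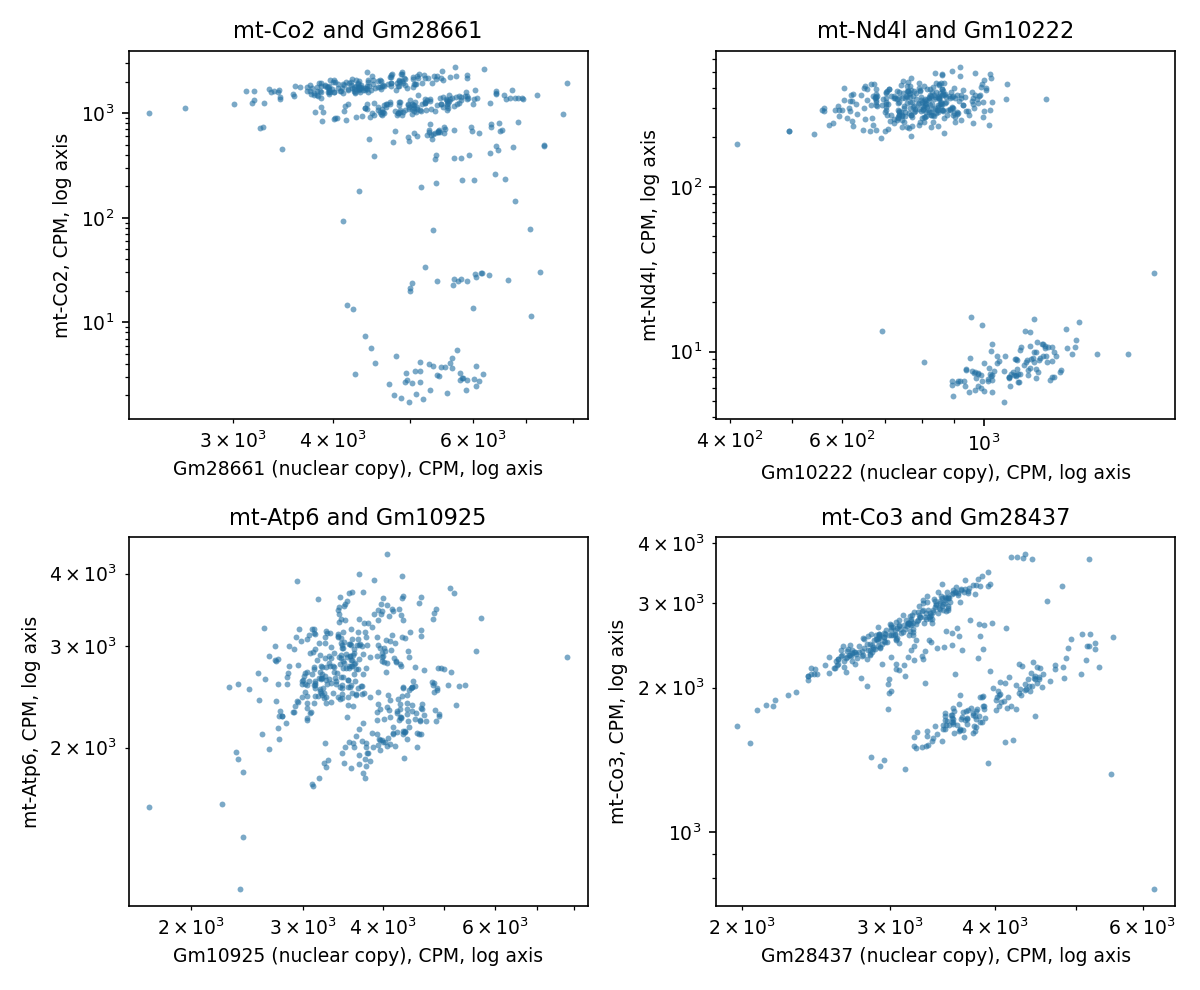
Each point is 1 of 416 libraries; the CPM of a mitochondrial messenger RNA (vertical, log axis) is plotted against that of its nearly identical nuclear copy (horizontal, log axis). mt-Nd4l forms a cloud at 4.91 to 29.9 CPM and another at 180.6 to 529.6 CPM, mt-Co2 spreads over several bands down to 1.71 CPM, and mt-Co3 lies along separate diagonals.

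A copy of lower identity behaved differently again. Gm13339 on chromosome 2, 96.7% identical to part of mt-Nd2, had a median of 0.0253 CPM, was at or above 100 CPM in 19 libraries and reached 1635 CPM. mt-Nd2, a complex I subunit, had no such jump and stayed between 1999 and 3651 CPM in those 19 libraries. Which of these counts came from mitochondrial and which from nuclear RNA was not tested. The sources used here do not give the reference sequence to which reads were assigned, nor whether it was the same for all animals, so the division between a member and its copy cannot be read as a property of the animal. Members with a copy are therefore given below both as deposited and summed with it.

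Levels are comparable between genes only per kilobase of transcript, and on that scale, with copies added, the messenger RNAs spanned less than an order of magnitude. mt-Atp6 had the highest median, 9239 CPM per kilobase, followed by mt-Co2 with 8863, mt-Co1 with 8751 and mt-Co3 with 7301 CPM per kilobase. The order within the top 3 was weak: mt-Atp6 exceeded mt-Co2 in 69.7% of libraries, and mt-Co2 exceeded mt-Co1 in 59.4%. mt-Atp8, the small accessory subunit of ATP synthase, had 6152 CPM per kilobase, above mt-Cytb with 5396 in 70.7% of libraries. mt-Cytb encodes cytochrome b, the only complex III subunit of the mitochondrial genome.

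Below these came the complex I subunits. mt-Nd1 had 4476 CPM per kilobase, mt-Nd4 4288, mt-Nd4l 3777, mt-Nd2 2906, mt-Nd3 2508, mt-Nd5 2110 and mt-Nd6 1428 CPM per kilobase. mt-Nd1 exceeded mt-Nd4 in 64.9% of libraries, while mt-Nd4 exceeded mt-Nd4l in 99.04% and mt-Nd5 exceeded mt-Nd6 in all 416. mt-Nd4l is much the shorter of its pair, and the part of length in that gap was not tested. Thus the messenger RNAs of cytochrome c oxidase and ATP synthase stood above every complex I messenger RNA in median level per kilobase. As deposited, without copies, the order changed: mt-Atp6 had 3843, mt-Co2 1845, mt-Co3 3050 and mt-Nd4l 981.5 CPM per kilobase.

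The ribosomal RNAs lay far below the messenger RNAs, in libraries that per the labels were depleted of ribosomal RNA. mt-Rnr2, the large-subunit RNA, had a median of 107.6 CPM per kilobase, and mt-Rnr1, the small-subunit RNA, 56.9 CPM per kilobase. mt-Rnr2 exceeded mt-Rnr1 in 96.4% of libraries, with a median ratio per length of 1.66.

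**Figure D2:**
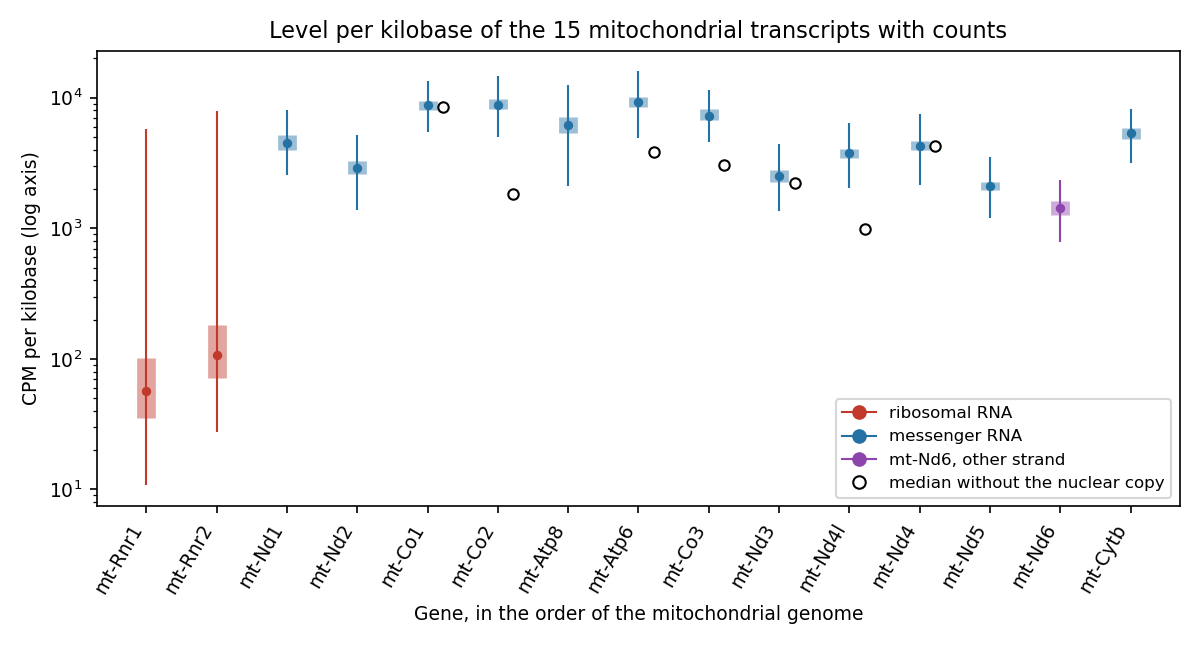
Level per kilobase (log axis) of the 15 mitochondrial transcripts with counts, in genome order; filled points are medians over 416 libraries with nuclear copies added, thick bars the 25th to 75th percentile, thin lines the full range, and open points medians of the deposited row alone. Messenger RNAs lie between 1428 and 9239 CPM per kilobase, the ribosomal RNAs at 56.9 and 107.6.

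The classes differed in how much they varied between libraries. The SD of log2 CPM was 1.31 for mt-Rnr1 and 1.01 for mt-Rnr2, against 0.16 to 0.38 for the 13 messenger RNAs with copies added. mt-Co1 was the steadiest at 0.16 and mt-Atp8 the least steady at 0.38. Over all 22968 genes tested the median SD was 0.30, and over 563 genes whose mean log2 CPM reached 8 it was 0.16. In a linear fit of the deposited rows, labelled sex took at most 1.48% of a member's variance (mt-Nd2) and generation at most 9.09% (mt-Nd6), so nearly all spread lay between libraries of the same group.

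mt-Rnr1 ran from 10.3 CPM in its lowest library through a median of 54.4 to 5500 CPM, and mt-Rnr2 from 43.97 through 170.2 to 12510 CPM. The highest values of both came from male G21 replicate 9. The next highest for mt-Rnr2 were 2498 CPM in female G22 replicate 35 and 2202 CPM in female G21 replicate 62. These libraries were also among the 4 with the most CT010467.1, a nuclear gene on chromosome 17 annotated as ribosomal RNA, with 98007 CPM in male G21 replicate 9, 16617 CPM in female G22 replicate 35 and 19457 CPM in female G21 replicate 62; the fourth was male G21 replicate 26 with 19374 CPM. Over 416 libraries mt-Rnr1 correlated with CT010467.1 with a Pearson r of 0.943 (permutation p = 1e-05, the smallest 100000 permutations can give; adjusted p = 1.78e-05 over 16 relations) and a Spearman rho of 0.937 (permutation p = 1e-05, adjusted p = 1.78e-05). Without the 2 libraries farthest from the median r was 0.939, and within the 6 groups it ran from 0.887 to 0.978. CT010467.1 was chosen after seeing the data, and the adjusted p of its correlations does not cover that choice.

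mt-Rnr2 followed the same gene with r = 0.837 and rho = 0.769 (permutation p = 1e-05 and adjusted p = 1.78e-05 for each), 0.825 without the 2 farthest libraries and 0.723 to 0.902 within groups. Lars2, the nuclear gene of mitochondrial leucyl-tRNA synthetase, correlated with mt-Rnr2 with r = 0.838 and rho = 0.744 (permutation p = 1e-05 and adjusted p = 1.78e-05 for each), 0.817 without the 2 farthest and 0.733 to 0.912 within groups. mt-Rnr1 and mt-Rnr2 followed each other with r = 0.907 and rho = 0.844 (permutation p = 1e-05 and adjusted p = 1.78e-05 for each), 0.898 without the 2 farthest and 0.815 to 0.947 within groups. The efficiency of ribosomal RNA depletion was not measured in these files, and its part in the levels of mt-Rnr1 and mt-Rnr2 was not tested.

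Later generations were set against G21 to see which members differed between cohorts; generation cannot be told apart from cohort, date or handling. In G23 against G21, 8 of 15 members were called by edgeR's quasi-likelihood test at a Benjamini-Hochberg adjusted p under 0.05, beside 58.3% of all genes tested. Of the 8, 6 were lower in G23 and 2 higher. The median log2 difference of the 15 was -0.05, beside -0.02 over all genes. Such a share is near the background. In bulk tissue, fewer cells of a type and less RNA per cell cannot be told apart.

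The members higher in G23 were mt-Nd6 and mt-Nd5, complex I subunits encoded side by side on opposite strands. mt-Nd6 had 503 CPM in the lowest, 799 in the median and 1154 in the highest G23 library, against 432.6, 698 and 1211 CPM in G21. The ranges overlap widely, and the log2 difference was 0.18 (SE 0.03, edgeR adjusted p = 7.99e-09). It was also the only member called between G23 and G22, where 18.2% of all genes were, with a log2 difference of 0.11 (SE 0.03, edgeR adjusted p = 0.00365) and a median of 799 CPM in G23 against 730 CPM in G22. mt-Nd5 had 2749, 4000 and 5309 CPM in G23, against 2245, 3785 and 6363 CPM in G21, a log2 difference of 0.10 (SE 0.02, edgeR adjusted p = 6.01e-05). mt-Nd5 and mt-Nd6 overlap by 14 bases on opposite strands, and whether the counting used strand is not given in the sources used here.

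The messenger RNAs lower in G23 were mt-Nd1, mt-Co1, mt-Atp6 and mt-Co3, all by small amounts. mt-Co3 summed with its copy had 3959, 5586 and 7985 CPM in G23, against 3691, 6086 and 9019 CPM in G21, a log2 difference of -0.09 (SE 0.02, edgeR adjusted p = 0.000226); as deposited it was -0.09 (SE 0.04, adjusted p = 0.0289). mt-Co1, the largest cytochrome c oxidase subunit, had 10705, 13385 and 17187 CPM in G23 with its copy, against 8503, 13784 and 20887 CPM in G21, a log2 difference of -0.06 (SE 0.02, edgeR adjusted p = 0.0065). mt-Atp6 fell by 0.13 on the log2 scale as deposited (SE 0.03, edgeR adjusted p = 2.83e-05), but by 0.05 with its copy added (SE 0.02, edgeR adjusted p = 0.036). mt-Nd1 had medians of 4169 CPM in G23 and 4428 CPM in G21, a log2 difference of -0.07 (SE 0.03, edgeR adjusted p = 0.029).

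Summing also brought in mt-Cytb, with a log2 difference of -0.05 (SE 0.02, edgeR adjusted p = 0.047; 0.0655 as deposited), for 9 calls in all. For mt-Co2 and mt-Nd4l it narrowed the error: the SE of the log2 difference was 0.20 and 0.19 as deposited, and 0.02 for both with copies, with differences of -0.04 and -0.04 that did not pass (edgeR adjusted p = 0.131 and 0.0765). mt-Nd2, mt-Nd3, mt-Nd4 and mt-Atp8 did not pass with or without copies.

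**Figure D3:**
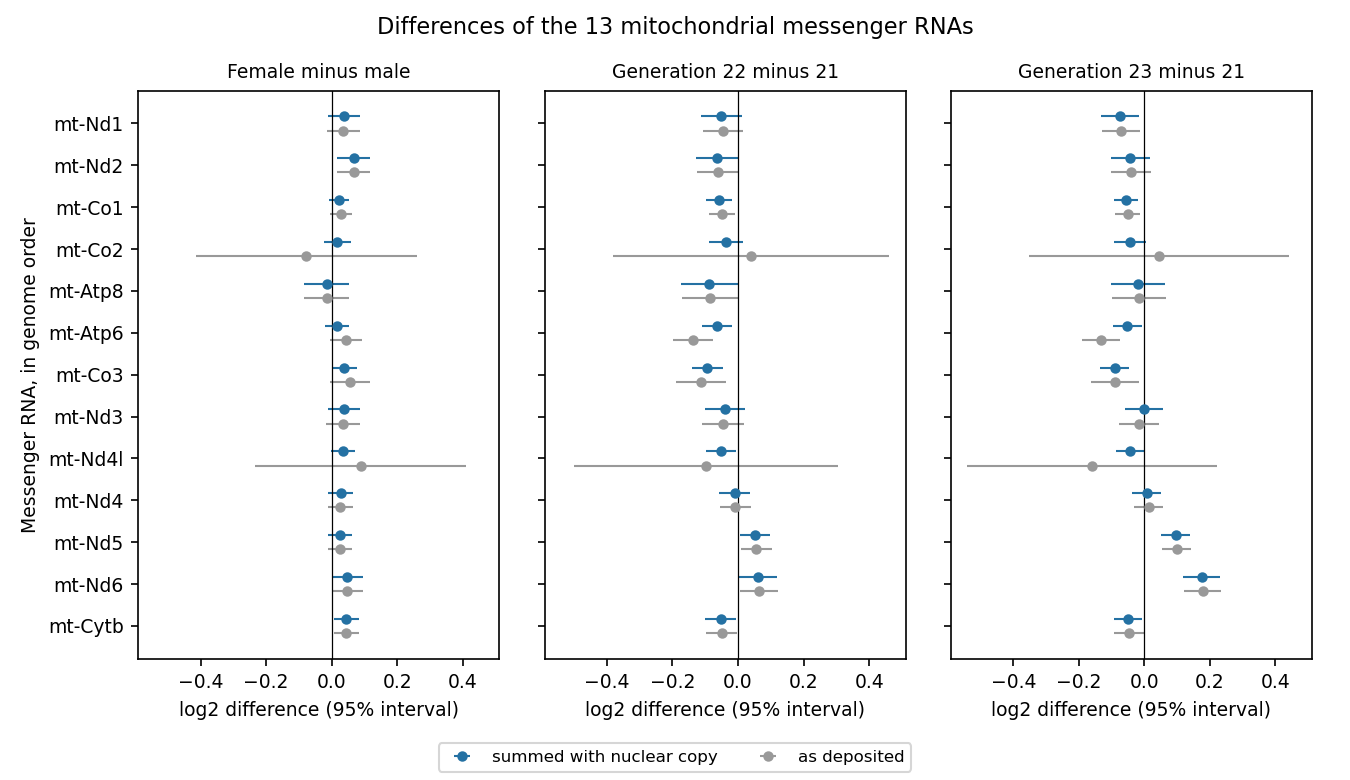
Log2 differences with 95% intervals of the 13 mitochondrial messenger RNAs for female minus male, G22 minus G21 and G23 minus G21; blue points are summed with a nuclear copy where there is one, grey points are as deposited. The deposited intervals of mt-Co2 and mt-Nd4l are several times wider than the summed ones, and mt-Nd5 and mt-Nd6 stand to the right of 0 in G23 minus G21.

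In G22 against G21, 5 of 15 members were called, beside 46.6% of all genes. mt-Atp6 fell by 0.14 as deposited (SE 0.03, edgeR adjusted p = 7.34e-05), and mt-Co3 by 0.11 (SE 0.04, adjusted p = 0.0119) on the log2 scale. With copies added the values were -0.07 (SE 0.02, edgeR adjusted p = 0.0152) and -0.09 (SE 0.02, adjusted p = 0.000399). mt-Co1 fell by 0.05 (SE 0.02, edgeR adjusted p = 0.0385) and mt-Rnr2 by 0.46 (SE 0.15, adjusted p = 0.0065). mt-Nd5 was higher in G22 by 0.06 (SE 0.02, edgeR adjusted p = 0.0467), a call that 7 of 23 alternative settings kept. It was lost without any 1 of male G21 replicate 9, female G21 replicates 26 and 31, male G22 replicate 22, female G22 replicate 1 or male G23 replicate 1, at 0.05 (edgeR adjusted p from 0.051 to 0.0837). The mt-Co1 difference was -0.05 without male G21 replicate 45 (edgeR adjusted p = 0.0575). This comparison and that of G23 with G21 share the G21 libraries.

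The ribosomal RNAs carried the largest fitted differences of all members and rested heavily on single libraries. mt-Rnr1 had 11.8 CPM in the lowest, 50.4 in the median and 633.5 in the highest G23 library, against 12.8, 56.9 and 5500 CPM in G21. mt-Rnr2 ran from 64.6 to 903.2 CPM in G23 with a mean of 210.5 ± 140 CPM (SD, n = 72 female and 75 male libraries), against 43.97 to 12510 CPM in G21 with a mean of 353.3 ± 1042 CPM (SD, n = 76 female and 74 male libraries); its medians in female and male libraries were 184.7 and 160.1 CPM in G23 and 167.3 and 187.6 CPM in G21. Medians were thus close, while the fitted log2 differences, which follow means, were -0.85 for mt-Rnr1 (SE 0.18, edgeR adjusted p = 1.29e-05) and -0.68 for mt-Rnr2 (SE 0.14, adjusted p = 8.23e-06). Without male G21 replicate 9 they were -0.54 (edgeR adjusted p = 0.00284) and -0.36 (adjusted p = 0.00744), and the G22 minus G21 difference of mt-Rnr2 was -0.13 (edgeR adjusted p = 0.43). By limma voom the mt-Rnr2 difference of G23 from G21 was -0.18 (adjusted p = 0.179). CT010467.1 moved with them, at -1.73 in G23 against G21 (SE 0.28, edgeR adjusted p = 7.67e-09), as did Lars2 at -1.22 (SE 0.20, adjusted p = 9.2e-09). Without male G21 replicate 9 these were -1.11 (edgeR adjusted p = 3.25e-05) and -0.67 (adjusted p = 0.000256). Lars2 stood apart from its class, the 22 genes listed for loading mitochondrial transfer RNAs with amino acids. Their log2 differences ran from -1.22, that of Lars2, to 0.113 with a median of -0.03. Lars2 had its highest level, 14720 CPM, in male G21 replicate 9, the library with the most CT010467.1. Whether all counts of Lars2 came from its own transcript was not tested, so its difference cannot be read as one of the synthetase gene. With the log2 CPM of CT010467.1 as a covariate, an alternative chosen after seeing the data, the differences of mt-Rnr1 and mt-Rnr2 were 0.06 and 0.07 (edgeR adjusted p = 0.369 and 0.421).

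Tissue markers also moved with generation. Of 10 cortical excitatory neuron markers 9 were higher in G23 than in G21 and none was lower, beside 25.8% of all genes higher. Their mean log2 CPM had medians of 0.87 in G21, 1.41 in G22 and 2.99 in G23, with ranges of -0.88 to 4.86, -0.996 to 5.35 and -0.89 to 5.14. Of the 10 spiny neuron markers 6 were lower in G23, beside 32.6% of all genes lower. Lower in G23 as well were 7 of 8 thalamic markers with a median log2 difference of -0.67, 6 of 6 ependymal markers (-0.42), 4 of 5 blood markers (-0.36) and 6 of 7 microglial markers (-0.10), with 1 microglial marker higher. Of the astrocyte and oligodendrocyte markers 4 each were lower and 1 each higher, of the endothelial markers 2 were lower and 2 higher, and of the choroid plexus markers 1 was lower. When 6 marker scores were added to the fit as covariates, 5 members were called in G23 against G21: mt-Nd6 at 0.23 (edgeR adjusted p = 3.44e-11), mt-Nd5 at 0.13 (adjusted p = 4.27e-06), mt-Atp6 at -0.10 (adjusted p = 0.00606), mt-Rnr1 at -0.87 (adjusted p = 0.000144) and mt-Rnr2 at -0.65 (adjusted p = 0.000266). The 6 scores were those of the cortical, thalamic, choroid plexus, oligodendrocyte, astrocyte and endothelial markers. The spiny neuron, ependymal, blood and microglial markers were not adjusted for. mt-Nd1, mt-Co1 and mt-Co3 did not pass in that fit. With no filter on low counts, mt-Nd1 and mt-Co3 as deposited did not pass either (edgeR adjusted p = 0.0601 and 0.057).

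Female and male libraries were compared as the labels' other contrast. None of the 15 members was called, beside 2.86% of all genes tested. At an unadjusted edgeR p under 0.05 there were 4, and DESeq2 and limma voom also called none. The median log2 difference of the 15 was 0.04, beside -0.00197 over all genes, and 11 of 13 messenger RNAs had a positive value. Levels of the messenger RNAs rise and fall together between libraries, so these 13 values are not separate observations. mt-Nd2 was at 0.07 (SE 0.03, edgeR adjusted p = 0.138), with medians of 3134 CPM in female and 2917 CPM in male libraries. mt-Cytb was at 0.04 (SE 0.02, edgeR adjusted p = 0.192), with medians of 6315 CPM in female and 5982 CPM in male libraries. mt-Rnr1 was at -0.43 (SE 0.15, edgeR adjusted p = 0.092), with medians of 50.6 CPM in female and 59.2 CPM in male libraries. Without male G21 replicate 9 it was at -0.23 (edgeR adjusted p = 0.396), and mt-Rnr2 at -0.10 (adjusted p = 0.655) in place of -0.32 (adjusted p = 0.117). Without the 29 libraries whose Xist level went against the label, none was called either.

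The sex difference of the ribosomal RNAs varied with generation, in a test that called 0.322% of all genes and 2 of 15 members. For mt-Rnr1 the female minus male log2 difference in G23 exceeded that in G21 by 1.43, and for mt-Rnr2 by 1.31. The edgeR interaction test takes the G22 and G23 terms together (2 degrees of freedom), so its p does not belong to these differences alone. Its adjusted p was 0.028 for mt-Rnr1 and 0.00498 for mt-Rnr2. Medians of mt-Rnr2 were 167.3 CPM in female and 187.6 CPM in male G21 libraries, 136.4 CPM in female and 161.2 CPM in male G22 libraries, and 184.7 CPM in female and 160.1 CPM in male G23 libraries. Without male G21 replicate 9 neither passed, at 0.86 (edgeR adjusted p = 0.572) and 0.70 (adjusted p = 0.518), nor did they when the 29 shallow or poorly correlated libraries were left out (adjusted p = 0.539 and 0.0616). CT010467.1 and Lars2 were also called in this test, at 2.09 and 1.59 (edgeR adjusted p = 0.0491 and 0.0249), and not without male G21 replicate 9, at 0.96 and 0.56 (adjusted p = 0.772 and 0.842). Of the 22 genes that load mitochondrial transfer RNAs, Lars2 was the only 1 called in this test, and their median value was -0.02. No messenger RNA passed.

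**Figure D4:**
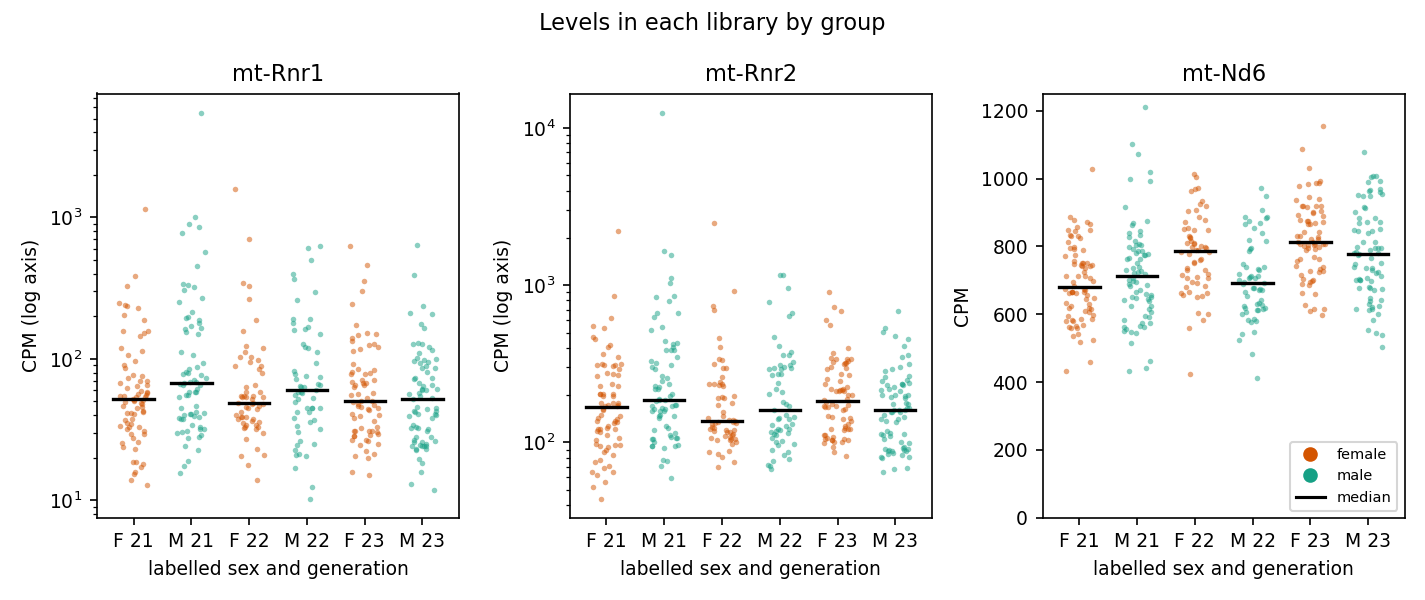
CPM of mt-Rnr1, mt-Rnr2 (log axes) and mt-Nd6 (linear axis from 0) in each library, by labelled sex (F, M) and generation; black lines are medians. The ribosomal RNAs spread over orders of magnitude within each group, with male G21 replicate 9 at the top at 5500 and 12510 CPM, while mt-Nd6 medians are 679.9 and 713.4 CPM in female and male G21 and 812.8 and 776.8 CPM in female and male G23 libraries.

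The messenger RNAs went up and down together from library to library. Each animal has 1 library, so differences between animals and between library preparations cannot be told apart. Over deviations from group means, the 78 pairs of messenger RNAs had a median Spearman rho of 0.397 as deposited and 0.703 with copies added, and 57 pairs were above 0.5 with copies and 31 without. These are descriptions over 416 libraries, and the members of a pair share each library's scaling. The closest pair with copies added was mt-Nd4l with mt-Nd4 at 0.93, whose transcripts overlap by 7 bases and which are carried on a shared RNA. mt-Atp8 and mt-Atp6, which also share an RNA and overlap by 43 bases, had 0.20 as deposited and 0.78 with the copy added. mt-Co1 and mt-Cytb, which have no such link, had 0.87 and 0.86.

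With copies added, mt-Nd6, from the other strand, had the lowest median rho with the other 12 messenger RNAs, 0.283, and -0.14 with mt-Atp8. As deposited its median was 0.334, and mt-Co2 with 0.0983, mt-Nd4l with 0.133 and mt-Atp8 with 0.329 lay lower. With copies added, the closest partners of mt-Nd6 were mt-Cytb (0.65) and mt-Nd5 (0.64), its neighbours on the genome: with mt-Nd5 Pearson's r over all libraries was 0.724 and rho 0.686 (permutation p = 1e-05 and adjusted p = 1.78e-05 for each), 0.716 without the 2 farthest libraries and 0.605 to 0.765 within groups. mt-Nd4l with mt-Nd4, as deposited, had to be taken within its 2 levels, and r was 0.395 in the low libraries (permutation p = 8e-05, adjusted p = 0.000128) and 0.655 in the others (permutation p = 1e-05, adjusted p = 1.78e-05), with rho of 0.475 and 0.575 (permutation p = 1e-05, adjusted p = 1.78e-05 for each). Without the 2 farthest libraries r was 0.317 in the low and 0.634 in the other libraries. The ribosomal RNAs were at most weakly related to the messenger RNAs: over 26 pairs of a messenger with a ribosomal RNA, the median rho was 0.0579 with copies added and none was above 0.5. Of the planned pairs, mt-Co1 with mt-Rnr2 as deposited had r = 0.0871 (permutation p = 0.0753, adjusted p = 0.0927) and rho = 0.124 (permutation p = 0.0111, adjusted p = 0.0137). With the copy of mt-Co1 added rho was 0.0818 (permutation p = 0.0951, adjusted p = 0.0951). mt-Nd1 with mt-Rnr2, next to it on the genome but for a transfer RNA, had r = 0.0588 (permutation p = 0.232, adjusted p = 0.248) and rho = 0.0418 (permutation p = 0.396, adjusted p = 0.396), with r = 0.0358 without the 2 farthest libraries and -0.0904 to 0.164 within groups.

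**Figure D5:**
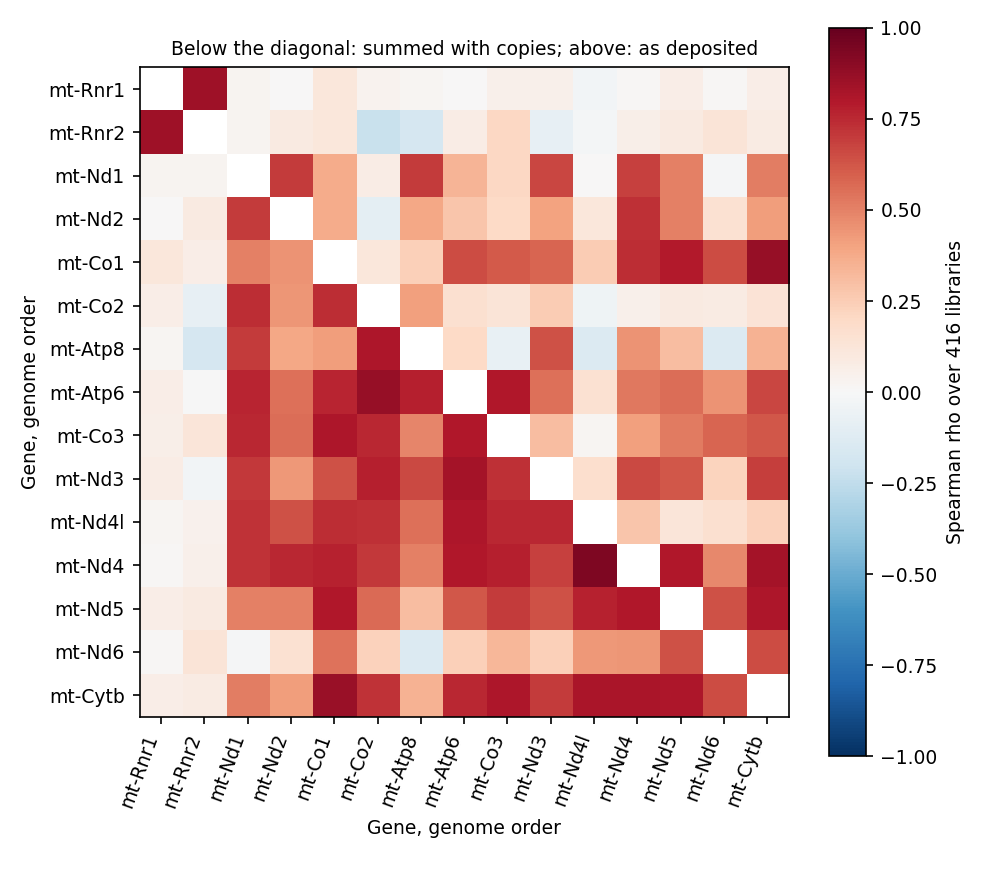
Spearman rho between the 15 mitochondrial transcripts with counts, in genome order, over deviations from group means in 416 libraries; above the diagonal as deposited, below it with nuclear copies added. The pale rows and columns of mt-Co2 and mt-Nd4l above the diagonal turn dark below it, and mt-Rnr1 and mt-Rnr2 are dark only with each other (0.85).

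Nuclear genes of the same complexes had weak correlations with the mitochondrial messenger RNAs between libraries. Over 416 libraries mt-Co1 with Cox4i1, a nuclear subunit of cytochrome c oxidase, had r = -0.00444 (permutation p = 0.928, adjusted p = 0.928) and rho = 0.130 (permutation p = 0.00807, adjusted p = 0.0108), with r from -0.381 to 0.371 within groups. mt-Nd1 with Ndufa13, a nuclear complex I subunit, had r = 0.0630 (permutation p = 0.200, adjusted p = 0.229) and rho = 0.0945 (permutation p = 0.0535, adjusted p = 0.0612), with r from -0.178 to 0.325 within groups. mt-Cytb with Uqcrc1, a core subunit of complex III, had r = -0.182 (permutation p = 0.00023, adjusted p = 0.000307) and rho = -0.0794 (permutation p = 0.105, adjusted p = 0.112), with r from -0.504 to 0.0464 within groups. Without the 2 farthest libraries r was 0.0447 for the first pair, 0.0692 for the second and -0.120 for the third. Over deviations from group means the Spearman calls of 2 pairs changed: mt-Co1 with Cox4i1 had rho = 0.0184 (permutation p = 0.710, adjusted p = 0.710) and mt-Cytb with Uqcrc1 had rho = -0.144 (permutation p = 0.00294, adjusted p = 0.00428).

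Most nuclear genes of these complexes were lower in G23 than in G21. In G23 against G21, 34 of 37 nuclear complex I genes were lower and none higher, as were 4 of 4 of complex II, 8 of 9 of complex III, 8 of 11 of complex IV and 14 of 15 of ATP synthase, beside 32.6% of all genes lower. Among mitochondrial messenger RNAs, 1 of 7 complex I genes was lower and 2 higher, the single complex III gene was not called, 2 of 3 complex IV genes were lower and 1 of 2 ATP synthase genes. The median log2 difference was -0.10 for the nuclear complex I genes, beside -0.02 for the mitochondrial ones. Ndufa13 was at -0.20 (SE 0.01, edgeR adjusted p = 3.52e-36), Cox4i1 at -0.14 (SE 0.01, adjusted p = 1.43e-21) and Atp5l, an ATP synthase subunit, at -0.15 (SE 0.01, adjusted p = 2.32e-21). The difference between nuclear and mitochondrial genes was not itself tested. Between G23 and G22, where 18.2% of all genes were called, few nuclear genes were: 1 of 37 complex I and 1 of 4 complex II genes were lower, 1 of 11 complex IV genes was higher, and none of the 9 complex III or 15 ATP synthase genes passed.

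Genes that make and process mitochondrial RNA were mixed. Of 17 genes of mitochondrial transcription and replication, 3 were higher and 6 lower in G23 than in G21, beside 25.8% of all genes higher and 32.6% lower. Tfam, which packages mitochondrial DNA and starts its transcription, was at 0.08 (SE 0.01, edgeR adjusted p = 6.48e-07), and Polrmt, the mitochondrial RNA polymerase, at -0.09 (SE 0.02, adjusted p = 1.86e-08). Of 27 tested genes of RNA processing and decay, 8 were higher and 8 lower, which is near the share over all genes. Pnpt1, a ribonuclease of the mitochondrial degradosome, was at 0.15 (SE 0.02, edgeR adjusted p = 1.01e-18), and Hsd17b10, a subunit of mitochondrial RNase P, at -0.20 (SE 0.02, adjusted p = 2.12e-23). Of 15 genes of ribosomal RNA maturation, 1 was higher and 10 lower, among them the helicase Ddx28 at -0.14 (SE 0.02, edgeR adjusted p = 9.65e-13). In female against male libraries, where 1.55% of all genes were higher and 1.3% lower, 3 of 9 nuclear complex III genes were higher and none was lower. They were Uqcrb at 0.06 (SE 0.01, edgeR adjusted p = 0.0094), Uqcr11 at 0.05 (SE 0.01, adjusted p = 0.0217) and Uqcrq at 0.04 (SE 0.01, adjusted p = 0.043), all small subunits outside the catalytic core. The median difference of that list was 0.03. Mitochondrial mt-Cytb of the same complex was at 0.04 and did not pass, and none of 37 nuclear complex I genes passed in either direction.

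Across libraries, the nuclear genes most like the mean of the 13 messenger RNAs with copies added were Ppp3ca, the catalytic subunit of calcineurin, with a rho of 0.475, Spock3 with 0.471, the kinase Slk with 0.459 and the potassium channel subunit Kcnab1 with 0.454, of 10733 genes ranked over 416 libraries. The most opposite were the kinase Wnk2 with -0.487 and the corepressor Tle3 with -0.457. With the deposited rows alone the first was Slk with 0.318 and the last again Wnk2 with -0.318. All 10 spiny neuron markers had a positive rho, from 0.209 to 0.372 with a median of 0.266, beside a median of 0.0172 over all genes ranked. A positive rho was not particular to them. All 7 microglial markers (0.0334 to 0.364, median 0.0993) and all 7 endothelial markers (0.00342 to 0.233, median 0.0455) were positive too. Of 8 oligodendrocyte markers 2 were above 0, and of 7 astrocyte markers 4. The 3 cortical markers ranked had a median of -0.253, with 1 above 0. The 37 nuclear complex I genes had a median rho of 0.0531. These values describe these libraries, and tissue makeup, depth and scaling are shared by all genes of a library.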

How the data were processed

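Striatum RNA was depleted of ribosomal RNA and made into stranded libraries with 100 bp read pairs, per the labels' protocols. The authors deposited estimated counts for 46517 gene IDs, of which 20.3% of values were not whole; aligner, counting tool, build and annotation are not given in the sources used here. Each column was mapped to 1 animal by its number, with 0 left over. GENCODE M21 named 46005 IDs. Counts were rounded, filtered with edgeR 4.0.16 filterByExpr (minimum count 10, 22968 genes), scaled by TMM and fitted with sex and generation under the robust quasi-likelihood test in R 4.3.3, with Benjamini-Hochberg adjustment over all genes tested. The generation and sex tests are two-sided. Alternatives used DESeq2 1.42.0, limma 3.58.1, other scalings, filters, libraries and covariates. Correlations use log2 CPM with a prior count of 2. Copies were sought with blastn 2.17.0 (at least 95% identity over at least 200 bases listed, at least 99% summed). The fit was also run on simulated counts with known folds. These did not copy single outlying libraries or the division of counts with nuclear copies. They therefore do not bear on results that rest on either. Each library is 1 animal. The members, gene lists and named nuclear genes were chosen by rule (every mt- symbol, up to 4 genes of each list with the smallest adjusted p, and the 10 nuclear genes with the highest and 5 with the lowest rho) with earlier results of these data known. The sums with copies, CT010467.1, the split of correlations at 50 CPM and single libraries left out, other than male G21 replicate 9, were chosen after seeing the data. Not every gene the rule allows is named.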

Additional observations from a re-analysis of the deposited data

Results flagged for a closer look

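The female minus male difference of mt-Rnr1 and of mt-Rnr2 differed between generations by the edgeR interaction test, with adjusted p = 0.028 for mt-Rnr1 and adjusted p = 0.00498 for mt-Rnr2. Medians of mt-Rnr1 were 51.7 CPM in female and 67.1 CPM in male G21 libraries, 48.9 CPM in female and 59.8 CPM in male G22 libraries, and 50.3 CPM in female and 51.9 CPM in male G23 libraries. Both calls were lost without male G21 replicate 9 (edgeR adjusted p = 0.572 and 0.518).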

How the results depend on the processing

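Each comparison was run under 23 alternatives. The count of members called kept within 1.5 times of its value under 23 of 23 for female minus male (0 throughout), 22 for G23 minus G21, 20 for G22 minus G21, 22 for G23 minus G22 and 17 for the interaction. With marker scores as covariates, 5 members were called in G23 minus G21 and 1 in the interaction. In G22 minus G21, 3 were called with no filter and 3 by limma voom. With CT010467.1 as a covariate, 3 were called in G23 minus G22 and 0 in the interaction, and the G23 minus G21 differences of mt-Rnr1 and mt-Rnr2 turned to 0.0569 and 0.0656. The interaction also had 0 calls by limma voom, without libraries of low total or low correlation, and summed with copies without male G21 replicate 9. Leaving out single libraries gave 8 to 9 calls in G23 minus G21, 3 to 6 in G22 minus G21, 1 in G23 minus G22, and 0 to 2 in the interaction. The calls of mt-Nd6, mt-Nd5 and mt-Atp6 in G23 minus G21 passed on the same side under all 23 alternatives. So did those of mt-Nd6 in G23 minus G22, and of mt-Atp6 and mt-Co3 in G22 minus G21. Every other call failed to pass under at least 1 alternative, but only mt-Rnr1 and mt-Rnr2 in G23 minus G21 changed side. The 12 planned pairs gave 14 correlations, since mt-Nd4l with mt-Nd4 and mt-Co2 with mt-Co3 were each split at 50 CPM. Of the 14, 11 were below an adjusted Spearman p of 0.05 under each of 3 alternatives, but not the same 11. Over deviations from group means mt-Co1 with Cox4i1 no longer passed (permutation adjusted p = 0.71) and mt-Cytb with Uqcrc1 did (adjusted p = 0.00428). No paired analysis was possible because replicate numbers follow the order of deposit and pair no animals. Where the cause of a change is not given above, the cause was not tested. Transfer RNAs had no counts to compare, and for members with copies the origin of the counts was not tested.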
